A study of Mus musculus with 24 samples.

Results

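Genomic imprinting silences 1 parental copy of a gene through DNA methylation set in the egg or sperm, so that the gene is read from the other copy. Many imprinted genes act on growth: paternally expressed ones such as Igf2 tend to promote it, and maternally expressed ones such as H19, Grb10 and Cdkn1c tend to restrain it. In mouse bone marrow, long-term hematopoietic stem cells, which seldom divide, are known to express a network of imprinted genes at higher levels than dividing progenitors do. The 10 imprinted genes described here were chosen by name with earlier results of these data known, and no minimum count was required. They are H19, Igf2, Meg3, Rian, Mirg, Grb10, Ndn, Peg3, Plagl1 and Gnas, of 55487 genes listed in all. All 10 were found in the files, each by 1 Ensembl gene ID. On GRCm38, H19 (chr7:142575529-142578143), Igf2 (chr7:142650766-142666816), Ndn (chr7:62346569-62350262) and Peg3 (chr7:6703892-6730431) lie on chromosome 7. Meg3 (chr12:109541001-109571726), Rian (chr12:109603940-109661716) and Mirg (chr12:109729764-109749460) lie in a row on chromosome 12. Grb10 (chr11:11930508-12038683), Plagl1 (chr10:13060504-13131694) and Gnas (chr2:174284320-174346744) share a chromosome with no other member.

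Hematopoietic stem cells were sorted from mice and profiled in 24 Smart-seq2 libraries of 6 groups; the study's title concerns the RNA-modifying enzyme pseudouridine synthase 10 (PUS10) in the ageing of these cells. PUS10-OE libraries (n = 3) were labelled for overexpression of PUS10 and were set against Vector libraries (n = 3). miR139-KD libraries (n = 6) had the microRNA miR-139 knocked down and were set against a non-target control, NTC (n = 6). Libraries labelled Pus10-KO (n = 3) were set against Pus10-WT (n = 3); the labels do not give the deleted part of the gene. The labels give no strain, age, time after treatment or animal for any group, so libraries may share animals and every p-value here speaks of the spread from library to library.

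Each library held between 9.87 M and 47.3 M (mega) counts over all genes, and 15575 to 17879 genes had at least 1 count. At this depth a count of 0 allows a level of up to 0.0683 to 0.292 CPM (counts scaled to a common library size) by library, for counting error only. Pus10 itself averaged 282 ± 29.2 CPM in PUS10-OE libraries and 82.3 ± 22.6 CPM in Vector libraries (SD, n = 3 each; edgeR adjusted p = 0.278), and it was called with DESeq2 (adjusted p = 3.07e-16), with a filter of 10 CPM and in the joint fit of all 6 groups. It averaged 32.5 ± 1.1 CPM in the libraries labelled Pus10-KO and 25.8 ± 6.97 CPM in Pus10-WT libraries, so the summed gene count did not go with the knockout label. All 10 stem cell markers (Procr, Hlf, Mecom, Slamf1 and others) were detected in every group, and the sum of their levels lay between 2030 and 2280 CPM in Pus10-KO libraries and between 1990 and 2340 CPM in Pus10-WT libraries. In the other 4 groups it lay between 403 and 875 CPM.

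The letters of 4 kinds of small RNA are given because the knockdown was aimed at one of them and members of the list hold the others. RefSeq (GRCm38.p6) places mature microRNAs on the sense strand inside 5 of the 10 genes: 2 in H19, 2 in Igf2, 3 in Meg3, 6 in Rian and 26 in Mirg. The deposited counts are of whole genes and do not measure these microRNAs. Capitals mark the seed, bases 2 to 8, in the microRNAs, and in the Grb10 line the 7 bases that pair with the miR-139-5p seed.
miR-139-5p: uCUACAGUgcacgugucuccag
miR-139-3p: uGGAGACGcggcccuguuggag
Grb10 3′ untranslated region: agagaaacACTGTAGttcacaga
miR-675-5p of H19: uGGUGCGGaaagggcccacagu
miR-675-3p of H19: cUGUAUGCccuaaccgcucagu
miR-483-5p of Igf2: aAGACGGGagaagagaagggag
miR-770-5p of Meg3: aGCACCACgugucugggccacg

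The Grb10 match lies at chr11:11931803-11931809 (GRCm38, minus strand), in the last part of the transcript after the coding sequence as annotated by GENCODE M21. Of the 6 protein-coding members with an annotated 3′ untranslated region, Grb10 alone held ACTGTAG on the transcript strand. None of the 6 held CGTCTCC, the match to the miR-139-3p seed. Such matches are common: 24.3% of 1133 genes whose 3′ untranslated region is within 10% of Grb10's 2955 bases held ACTGTAG, as did 11.6% of 21037 genes of any length. The match describes letters only, and binding of the microRNA was not measured.

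In most libraries 7 of the 10 genes were at or near 0. Igf2, the paternally expressed growth factor, had 1 count in 1 of 24 libraries. Mirg, a maternally expressed noncoding RNA, had 7 counts in NTC replicate 5 and 6 counts in Pus10-WT replicate 1, and none in the other 22 libraries. Peg3 and Plagl1, both zinc finger proteins expressed from the paternal copy, were detected in 6 and 5 libraries, with at most 42 and 49 counts. H19, Meg3 and Rian were detected in 3, 8 and 8 libraries. Grb10 and Gnas were detected in all 24 libraries and Ndn in 18. The name of the list, imprinted genes of quiescent stem cells, therefore covers 3 genes with counts in most of these libraries and 7 with counts in 8 or fewer.

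**Figure D1:**
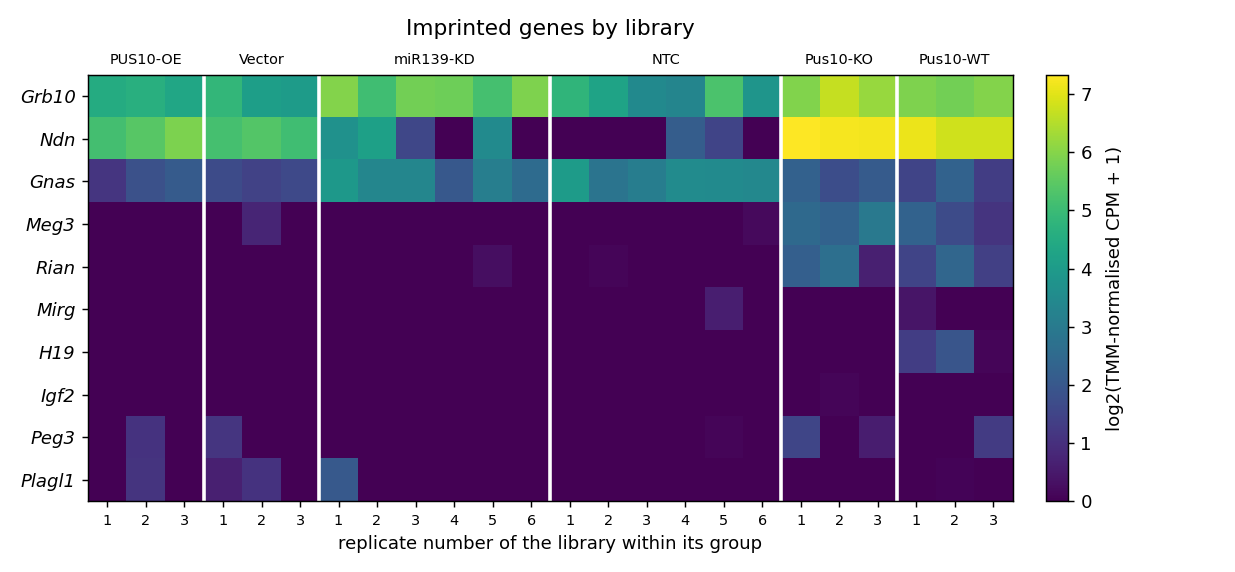
Levels of the 10 imprinted genes (rows) in the 24 libraries (columns, grouped), as log2(TMM-normalised CPM + 1). Grb10 and Gnas have counts in all 24 libraries, Ndn in 18, and Meg3 and Rian mainly in the 6 libraries of the Pus10-KO and Pus10-WT groups.

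Per length, Ndn and Grb10 stood highest among the 10. On the RPKM scale (CPM per 1000 bases of merged exons), the mean level over all 24 libraries was 12.5 for Ndn, 4.32 for Grb10 and 0.515 for Gnas. Each of the other 7 averaged at most 0.0747 RPKM, the value of H19. Ndn, Grb10 and Peg3 share no exon bases with another annotated gene, so their counts are not split by overlap.

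Gnas encodes Gsα, the G protein subunit that couples receptors to adenylyl cyclase, from a locus with several promoters. Exons of the antisense gene Gm20721 cover 13.1% of its merged exon bases but 80.4% to 85.4% of the bases of the 3 transcripts Gnas-206, Gnas-207 and Gnas-208, which start at the downstream promoter. Smart-seq2 does not mark strand, and ambiguous reads made up 6.53% to 20.1% of a library. Gm20721 itself had at most 4 counts in a library and Gnas had 24 to 184. How much of Gnas was set aside this way was not tested, so its level is uncertain. Igf2 shares 62.8% of its exon bases with Gm49394 on the same strand, and 35.5% of its exon bases belong to no other gene. Gm49394 had no counts in any library, but reads in shared exons may be set aside for both genes. The level of Igf2 is therefore uncertain too.

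The 9 members with a promoter sequence in the RefSeq table differed in the number of CpG dinucleotides, the sites of imprinting methylation. In the window of 300 bases around the start, Grb10 had 45 CpGs, more than 98.1% of 27025 mouse promoters. Gnas had 27, Plagl1 26, Meg3 13, Peg3 13, Ndn 11 and Mirg 10, all above the median of 7. Igf2 had 2 and Rian none. Methylation was not measured in these samples.

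Grb10 is an adaptor protein that binds the activated insulin and insulin-like growth factor 1 receptors and dampens their signal, and it is read from the maternal copy in most mouse tissues. It was higher in miR139-KD libraries than in NTC libraries. Its level was 32.6 CPM in the lowest, 52.8 in the median and 61.4 in the highest miR139-KD library, against 9.05, 15.7 and 37.5 CPM in NTC libraries. Of the 6 NTC libraries 5 lay below every miR139-KD library, and the other, NTC replicate 5, lay above the 2 lowest of them, so the groups overlapped. The means were 48.9 ± 12.2 CPM in miR139-KD and 19.2 ± 11.1 CPM in NTC (SD, n = 6 each). This 2.57-fold difference, a log2 fold change of 1.36 with a standard error of 0.343, passed the test narrowly (edgeR adjusted p = 0.0487).

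That call rested on the full set of 12 libraries. Without NTC replicate 5 the log2 fold change was 1.67 (edgeR adjusted p = 0.0147), and without any 1 of the other 11 libraries it lay between 1.22 and 1.49 with an edgeR adjusted p between 0.0517 and 0.101. With no filter on low counts the edgeR adjusted p was 0.0535. Grb10 was the only 1 of the 3 members tested in this comparison that was called, where 2.72% of all 13295 tested genes were.

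Other differences between the same 2 groups stood beside Grb10. The 3 multipotent progenitor markers analysed, Flt3, Cd34 and Cd48, were called lower in miR139-KD. Their summed level was 183 to 265 CPM in miR139-KD libraries, against 492 to 927 CPM in NTC libraries. The summed stem cell markers were 622 to 791 CPM in miR139-KD and 403 to 657 CPM in NTC, and of these markers Slamf1 and Ctnnal1 were called higher. Of 5 megakaryocyte markers 4 were called higher in miR139-KD (Pf4, Gp9, Itga2b and Vwf). The 5 summed to 1100 to 2780 CPM in miR139-KD libraries, against 64.9 to 313 CPM in NTC libraries, and Pf4 alone had a log2 fold change of 4.31 (edgeR adjusted p = 0.00179). Of the 5 B lineage markers Cd79a, Cd79b and Pax5 were called lower, and Ebf1 (edgeR adjusted p = 0.123) and Ighm (0.992) were not called. Of the 3 T lineage markers Lck was called lower, and Cd3e and Cd3g had no count in these 2 groups. Of the 4 endothelial markers Egfl7 was called lower, Pecam1 was not called (edgeR adjusted p = 0.607) and Cdh5 had no count. Kdr, which was not tested, ran the other way, averaging 3.27 CPM in miR139-KD and 0.0368 CPM in NTC. Granulocyte and monocyte markers summed to 747 to 12000 CPM in miR139-KD and 1120 to 11000 CPM in NTC libraries. Erythroid markers summed to 964 to 7380 CPM in miR139-KD and 631 to 9910 CPM in NTC libraries. Both sums varied widely within each group, and none of these markers was called. In libraries of many cells a shift in which cells were sorted and a change of RNA within each cell cannot be told apart, and the part of these markers in the Grb10 difference was not tested. Plasma cell markers (Jchain, Mzb1, Igkc and Sdc1) summed to 9410 and 2860 CPM in miR139-KD replicates 5 and 6 and to 10300 CPM in NTC replicate 5. With those 3 libraries removed, a choice made after seeing the data, the Grb10 log2 fold change was 1.70 (edgeR adjusted p = 0.0437).

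Grb10 did not pass the test in the other comparisons. Its level was 21.8, 23.8 and 19.1 CPM in PUS10-OE libraries, against 27.8, 16.2 and 15.4 CPM in Vector libraries, and the 3 PUS10-OE values lay within the Vector range, with a log2 fold change of 0.10 and a standard error of 0.267 (95% interval -0.42 to 0.62, edgeR adjusted p = 0.982). Marker sums differed between these 2 groups too, though edgeR called no gene there. Progenitor markers summed to 721 to 749 CPM in PUS10-OE and 1000 to 1020 CPM in Vector libraries. Megakaryocyte markers summed to 266 to 496 against 168 to 193 CPM, and B lineage markers to 52.1 to 96 against 96.7 to 137 CPM. Their part in any difference was not tested. Grb10 was 60.9, 102 and 72.9 CPM in libraries labelled Pus10-KO, against 58.8, 53.1 and 61.4 CPM in Pus10-WT libraries. Of the Pus10-KO libraries 2 lay above every Pus10-WT library, with a log2 fold change of 0.42 and a standard error of 0.220 (95% interval -0.01 to 0.85, edgeR adjusted p = 0.822).

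Across the 6 groups the mean Grb10 level ran 78.6 CPM in Pus10-KO, 57.7 in Pus10-WT, 48.9 in miR139-KD, 21.6 in PUS10-OE, 19.8 in Vector and 19.2 in NTC. The only neighbours in this order whose ranges did not overlap were miR139-KD and PUS10-OE. The Pus10-KO and Pus10-WT groups, in which Grb10 stood high, also had the highest stem cell marker sums and progenitor marker sums of at most 87.1 CPM. Differences between groups of different experiments cannot be told apart from differences between the experiments.

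**Figure D2:**
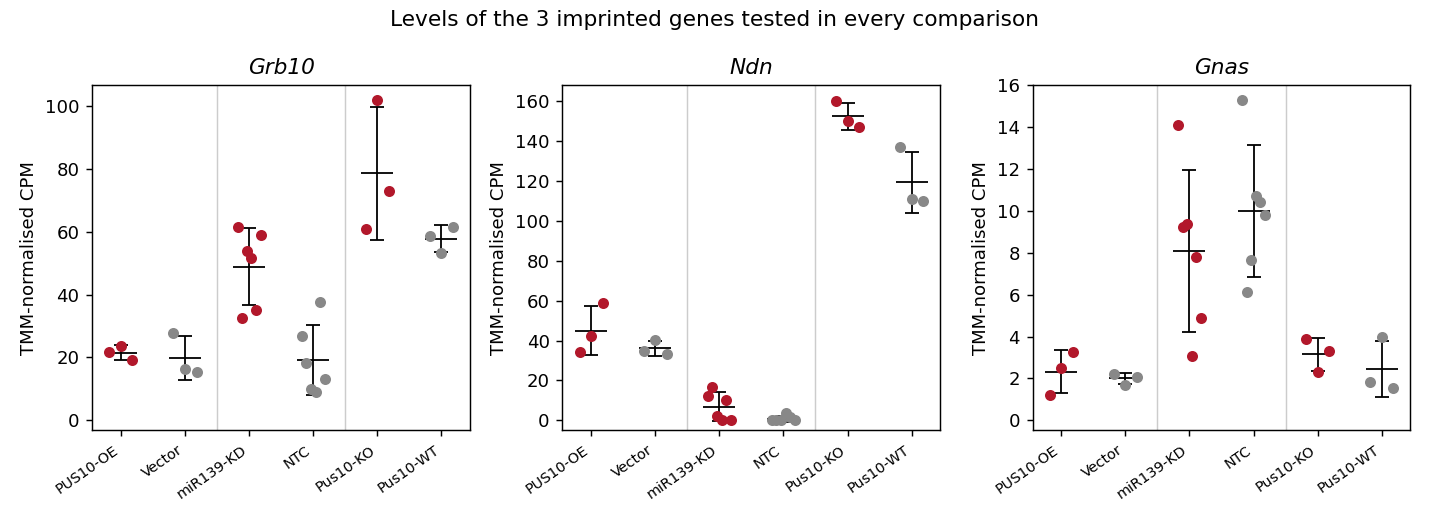
TMM-normalised CPM of Grb10, Ndn and Gnas in every library (points), with the group mean and SD (black bars), each perturbed group in red left of its control in grey. Grb10 is higher in miR139-KD than in NTC with overlap at 37.5 CPM, and Ndn runs from above 100 CPM in the Pus10-KO and Pus10-WT groups to 0 in 4 of 6 NTC libraries.

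Ndn encodes necdin, a MAGE family protein that is known in mouse stem cells and neurons to restrain proliferation, and it is read from the paternal copy on chromosome 7. It had the widest range of the 10 genes. The mean level was 152 CPM in Pus10-KO, 119 in Pus10-WT, 45.0 in PUS10-OE, 36.1 in Vector, 6.86 in miR139-KD and 0.892 in NTC. Ranges of neighbours in this order overlapped between PUS10-OE and Vector and between miR139-KD and NTC, and were separate elsewhere.

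In the libraries labelled Pus10-KO, Ndn stood at 160, 150 and 147 CPM, against 137, 111 and 110 CPM in Pus10-WT libraries. The groups did not overlap, as was true of 13.5% of all genes tested in this comparison. At a log2 fold change of 0.34 with a standard error of 0.136 (95% interval 0.07 to 0.60), Ndn did not pass the test over all genes (edgeR adjusted p = 0.692). In PUS10-OE libraries Ndn stood at 34.2, 42.1 and 58.6 CPM, against 34.9, 40.3 and 33.2 CPM in Vector libraries. These groups overlapped, and the log2 fold change was 0.30 with a standard error of 0.222 (edgeR adjusted p = 0.832). Without PUS10-OE replicate 3 it was 0.03, so that library carried the difference.

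Ndn was detected in 4 of 6 miR139-KD libraries, at 12.1, 16.8, 1.94 and 10.3 CPM, and in 2 of 6 NTC libraries, at 3.52 and 1.83 CPM. The other 2 miR139-KD and 4 NTC libraries had no Ndn count. The means were 6.86 ± 7.17 CPM in miR139-KD and 0.892 ± 1.48 CPM in NTC (SD, n = 6 each), and the groups overlapped at 0. The log2 fold change of 2.95 had a standard error of 1.67 (edgeR adjusted p = 0.422), and a two-sided exact permutation test of log2(CPM + 1) over all 924 arrangements gave p = 0.119. Within the same libraries Ndn reached 16.8 CPM in miR139-KD replicate 2 and was 0 in replicates 4 and 6, a spread wider than the difference between the group means.

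Gnas was low in every group, with the highest means in NTC and miR139-KD. Its level was 3.07 CPM in the lowest, 8.50 in the median and 14.1 in the highest miR139-KD library, against 6.13, 10.1 and 15.3 CPM in NTC libraries. The log2 fold change was -0.29 with a standard error of 0.419 (edgeR adjusted p = 0.818). It stood at 1.21, 2.50 and 3.26 CPM in PUS10-OE and 2.22, 1.71 and 2.08 CPM in Vector libraries, a log2 fold change of 0.20 with a standard error of 0.561 (edgeR adjusted p = 0.983). In Pus10-KO it stood at 3.87, 2.31 and 3.29 CPM and in Pus10-WT at 1.81, 3.97 and 1.54 CPM, a log2 fold change of 0.35 with a standard error of 0.893 (edgeR adjusted p = 0.999). The groups overlapped in all 3 comparisons.

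Meg3, Rian and Mirg are noncoding RNAs read from the maternal copy of the Dlk1-Dio3 region on chromosome 12; the region is known to be needed by long-term stem cells of the mouse fetal liver. Meg3 and Rian were detected in all 6 libraries of the Pus10-KO and Pus10-WT groups and in 2 of the other 18 libraries each. Meg3 had 61, 63 and 137 counts, or 4.63, 3.94 and 6.83 CPM, in libraries labelled Pus10-KO, against 69, 38 and 18 counts, or 3.91, 2.18 and 1.15 CPM, in Pus10-WT libraries. All 3 Pus10-KO values lay above the Pus10-WT values, the lowest by a margin of 3.94 against 3.91 CPM. Meg3 had a log2 fold change of 1.07 with a standard error of 0.816 (95% interval -0.53 to 2.66, edgeR adjusted p = 0.929).

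Rian had 3.64, 5.43 and 0.548 CPM in Pus10-KO libraries, against 1.81, 4.37 and 1.60 CPM in Pus10-WT libraries. The lowest and the highest value both came from the Pus10-KO group, and the groups overlapped. The log2 fold change was 0.28 with a standard error of 1.08 (edgeR adjusted p = 0.999), and it was -0.33 without Pus10-KO replicate 2. Outside these 6 libraries, Meg3 reached 31 counts in Vector replicate 2 and had 2 counts in NTC replicate 6, and Rian had 3 counts in miR139-KD replicate 5 and 1 count in NTC replicate 2. Dlk1, the paternally expressed gene of the same region and named after its values were seen, was detected in 11 libraries, at a mean of 0.0208 CPM in Pus10-KO and 1.48 CPM in Pus10-WT, and Rtl1 and Dio3 in none.

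H19, the maternally expressed noncoding RNA next to Igf2, was detected only in the 3 Pus10-WT libraries, with 27, 49 and 1 counts, or 1.53, 2.82 and 0.0641 CPM. All 3 Pus10-KO libraries were at 0, as were the other 18 libraries. Taking 3 counts for the whole Pus10-KO group as the floor, the pooled level was at least 25-fold lower in Pus10-KO. That bound rested mostly on Pus10-WT replicate 2, without which it was 13.8-fold, and the 1 count of replicate 3 is itself under the floor of 3. H19 did not pass the filter on low counts, and an exact permutation test gave p = 0.1, the smallest that 3 against 3 libraries can give. The Pus10-WT libraries that held H19 had summed plasma cell markers of 11900 to 14100 CPM, against 8.06 to 14.6 CPM in Pus10-KO libraries. B lineage markers (Cd79a, Cd79b, Ebf1, Pax5 and Ighm) summed to 5010 to 13300 CPM in Pus10-WT and 81.9 to 100 CPM in Pus10-KO. Most of that Pus10-WT sum was Ighm, at 4900 to 13200 CPM, against 23.9 to 41.1 CPM in Pus10-KO. Cd79a averaged 33.0 CPM in Pus10-WT and 0 in Pus10-KO, and Cd79b 87.1 and 60.7 CPM. Ebf1 reached at most 0.449 CPM, and Pax5 was 0 in both groups. The difference in these marker sums runs between the 2 groups in every library. It therefore cannot be told apart from the genotype label for H19, Ndn, Meg3 or any other gene compared between Pus10-KO and Pus10-WT. Granulocyte and monocyte markers summed to 558 to 3130 CPM in Pus10-KO and 487 to 750 CPM in Pus10-WT. Among them Mpo stood at 0.228 to 1110 CPM in Pus10-KO and at most 0.0575 CPM in Pus10-WT. Elane, S100a8 and Csf1r also averaged higher in Pus10-KO. Prtn3 averaged 712 ± 139 CPM in Pus10-KO and 601 ± 129 CPM in Pus10-WT. Ngp ran the other way, at 0 in Pus10-KO and 0.0641 to 1.13 CPM in Pus10-WT. Erythroid markers summed to 406 to 4230 CPM in Pus10-KO and 201 to 1530 CPM in Pus10-WT. The part of these markers in the differences was not tested.

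Peg3 was detected in 2 of 3 Pus10-KO libraries, at 1.90 and 0.498 CPM, and in 1 Pus10-WT library, at 1.41 CPM. It had 1.10 CPM in 1 PUS10-OE library and 1.18 CPM in 1 Vector library, and 1 count among the 12 libraries of the miR139-KD experiment, in NTC replicate 5. Plagl1 had 1.13 CPM in 1 PUS10-OE library, against 0.562 and 1.12 CPM in 2 Vector libraries. It had 3.12 CPM in miR139-KD replicate 1 and 1 count in Pus10-WT replicate 2, and none elsewhere. The Plagl1 log2 fold change of -0.61 in PUS10-OE had a standard error of 2.12 (edgeR adjusted p = 0.988), so no direction can be read from it.

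In all, 4 members were tested in PUS10-OE against Vector and 0 were called, with 0% of 14834 genes called. Unadjusted, 1215 genes had an edgeR p under 0.05 in that comparison, while limma called 0 genes and DESeq2 called 177, none of them a member. None of the 4 members had an unadjusted edgeR p under 0.05. Of the 5 members tested in Pus10-KO against Pus10-WT, 0 were called, against 0.0614% of 14657 genes by edgeR, where 1006 genes, Ndn among them, had an unadjusted p under 0.05. In that comparison limma called 3 genes and DESeq2 146, none of them a member. A member counted as tested only if enough libraries had at least about 10 counts, so these counts do not stand for all 10 genes. In Pus10-KO against Pus10-WT, 2 of the 5 tested members, Ndn and Meg3, had groups that did not overlap, where 13.5% of all genes tested did. In the other 2 comparisons none of the tested members did, where 15.3% of all genes tested in PUS10-OE against Vector and 3.38% in miR139-KD against NTC had separate groups.

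**Figure D3:**
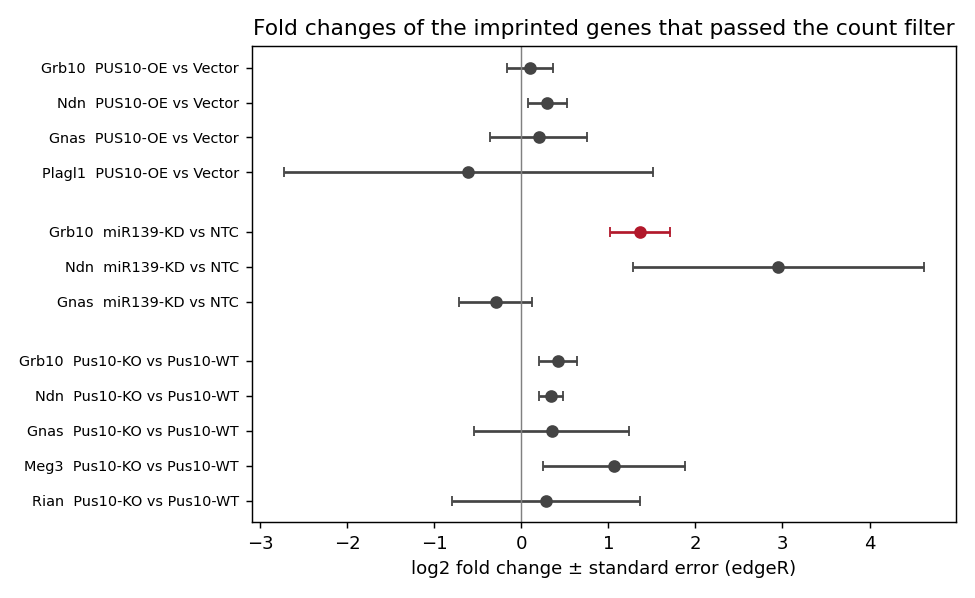
log2 fold change with its standard error (edgeR) for each imprinted gene that passed the count filter, in each comparison of a perturbed group with its control. Grb10 in miR139-KD against NTC, in red at 1.36, is the only 1 with an adjusted p under 0.05, and the bar of Plagl1 spans 0 widely.

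Whether the PUS10-OE effect differed from the Pus10-KO effect was tested for the 3 members present in all groups. The difference in log2 fold change was -0.32 for Grb10 (95% interval -1.43 to 0.79), -0.16 for Gnas (-1.87 to 1.55) and -0.04 for Ndn (-3.23 to 3.15), each with an edgeR adjusted p of 1. These intervals are wide and do not show that the effects were alike.

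The other imprinted genes gave a wider view of the class. The deposited counts do not tell which parental copy of a gene was read, so imprinting itself was not measured in these cells. Of 48 others looked at, 24 were detected in all 24 libraries, 18 in some and 6 in none; of the 6, Snurf has no exon base of its own in the annotation, so its 0 carries no information. On the RPKM scale the highest mean levels over the 24 libraries were 187 for Cd81, 72.1 for Nap1l4, 65.3 for Tspan32 and 36.6 for Tssc4, all neighbours of Kcnq1ot1 on distal chromosome 7. In miR139-KD against NTC, 26 of the 48 were tested and edgeR called 0 higher and 1 lower, beside 2.72% of all genes called, with a median log2 fold change of 0.19 against 0.02 over all genes tested. The 1 was Tssc4, known from human cells as a factor in assembly of the splicing machinery, at 52.6 ± 9.87 CPM in miR139-KD and 95.9 ± 24.5 CPM in NTC (SD, n = 6 each). Its log2 fold change was -0.85 with a standard error of 0.186 (edgeR adjusted p = 0.0264), and the call held without miR139-KD replicate 4 or 5 or NTC replicate 1 or 6 and was lost without any 1 of the other 8 libraries (edgeR adjusted p 0.0517 to 0.0600).

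The next 3 imprinted genes by p in that comparison did not pass the edgeR test. DESeq2 called 3 of the 26 tested, where it called 797 of the 13295 genes given to it. The count for limma was 2, where every alternative, limma among them, called at least 188 genes in all. Over all alternatives the count ran from 0 to 3, and Sgce passed in 5 of the 22 alternatives and Impact in 2. Sgce, which encodes epsilon-sarcoglycan and is paternally expressed, averaged 20.7 ± 8.11 CPM in miR139-KD and 3.95 ± 3.64 CPM in NTC, a log2 fold change of 2.40 (edgeR adjusted p = 0.0582). Impact, a paternally expressed inhibitor of the stress kinase GCN2, averaged 43.2 ± 9.72 CPM in miR139-KD and 27.6 ± 4.31 CPM in NTC (edgeR adjusted p = 0.0886). Gab1, an adaptor of receptor kinases, averaged 27.9 ± 7.90 CPM in miR139-KD and 15.6 ± 5.34 CPM in NTC (edgeR adjusted p = 0.154). In PUS10-OE against Vector 33 of the 48 were tested and in Pus10-KO against Pus10-WT 32, with 0 called in each by edgeR, limma or DESeq2. Of these, 3 and 2 genes had an unadjusted edgeR p under 0.05, beside 8.19% and 6.86% of all genes tested. The median log2 fold changes were -0.02 and 0.01, against 0.01 and 0.00 over all genes tested.

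Cdkn1c, the maternally expressed cyclin-dependent kinase inhibitor p57 that holds mouse stem cells in quiescence, had the lowest p of the 48 in Pus10-KO against Pus10-WT. Its level was 17.5 ± 1.88 CPM in Pus10-KO and 4.90 ± 2.47 CPM in Pus10-WT (SD, n = 3 each). The groups did not overlap, as was true of 13.5% of all genes tested in this comparison. These are the same 2 groups that differed in summed plasma cell markers and in Ighm. The log2 fold change was 1.82 with a standard error of 0.497, and it did not pass the test over all genes (edgeR adjusted p = 0.507). The noncoding RNA Peg13 averaged 46.6 ± 12.3 CPM in Pus10-KO and 24.6 ± 5.61 CPM in Pus10-WT (edgeR adjusted p = 0.559).

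The neighbours of Ndn in the Prader-Willi region of chromosome 7 were looked up after their values were seen. Snrpn, a spliceosome protein gene, had means of 6.11 CPM in PUS10-OE, 6.36 in Vector, 4.19 in Pus10-KO and 4.69 in Pus10-WT, and was detected in 1 of the 12 libraries of the other experiment. Mkrn3 averaged 0.215 CPM in miR139-KD and 0.771 CPM in NTC, against 2.14 to 6.67 CPM in the other 4 group means. Peg12 averaged 71.4 ± 5.11 CPM in PUS10-OE and 53.9 ± 3.70 CPM in Vector (edgeR adjusted p = 0.486). The groups did not overlap, as was true of 15.3% of all genes tested in that comparison. Peg12 averaged 15.0 CPM in miR139-KD and 9.31 CPM in NTC. Magel2 had 1 count in 1 library. Ndn, Snrpn, Mkrn3 and Peg12 had their lowest 2 group means in miR139-KD and NTC. Ube3a, a ubiquitin ligase gene of the same region, did not. It averaged 75.7 CPM in miR139-KD and 60.9 CPM in NTC, against 35.1 CPM in PUS10-OE and 39.8 CPM in Vector. The low means were not particular to this region. Sgce on chromosome 6 and Impact on chromosome 18 also had their lowest 2 group means in miR139-KD and NTC. Both groups belong to 1 experiment, so these levels cannot be told apart from a difference between the experiments.

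**Figure D4:**
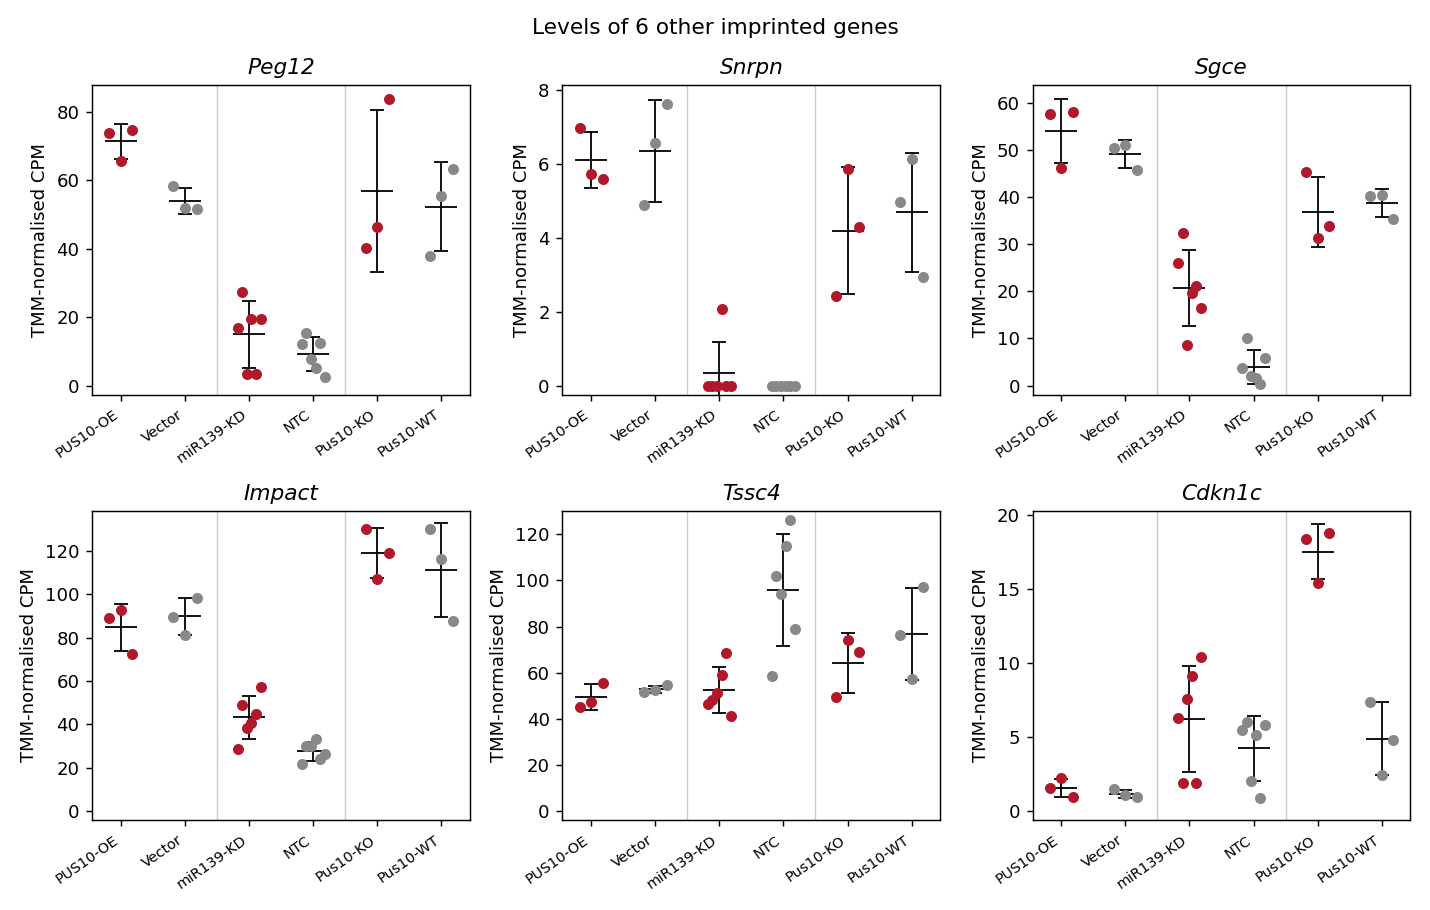
TMM-normalised CPM of 6 other imprinted genes in every library (points), with group mean and SD (black bars), each perturbed group in red left of its control in grey; Peg12 and Snrpn were chosen after their values were seen. Peg12, Snrpn, Sgce and Impact are lowest in miR139-KD and NTC, Tssc4 averages 52.6 CPM in miR139-KD and 95.9 CPM in NTC, and Cdkn1c is highest in Pus10-KO.

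Grb10 acts on insulin and insulin-like growth factor signalling, and 22 of 25 genes of that pathway were tested in miR139-KD against NTC. Both edgeR and limma called 0 of them, and DESeq2 called 1, where it called 797 genes in all. Unadjusted, 4 had an edgeR p under 0.05, beside 16% of all genes tested. The median log2 fold change was 0.32, against 0.02 for all genes. Igfbp4, a binding protein that holds insulin-like growth factors, averaged 157 ± 30.8 CPM in miR139-KD and 237 ± 40.3 CPM in NTC (edgeR adjusted p = 0.0547). Insr, the insulin receptor, averaged 24.5 ± 8.10 CPM in miR139-KD and 14.1 ± 4.26 CPM in NTC (edgeR adjusted p = 0.209). In Pus10-KO against Pus10-WT 18 of 22 tested genes had a positive log2 fold change, with a median of 0.25 against 0.00 over all genes. All of edgeR, limma and DESeq2 called 0 of them, and 2 had an unadjusted edgeR p under 0.05, beside 6.86% of all genes tested. The kinase gene Mtor averaged 35.7 ± 0.613 CPM in Pus10-KO and 23.2 ± 1.98 CPM in Pus10-WT (edgeR adjusted p = 0.649). In PUS10-OE against Vector 21 were tested, the 3 tools called 0 and 3 had an unadjusted edgeR p under 0.05, beside 8.19% of all genes tested.

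Of 21 genes of Gs and cyclic AMP signalling, the pathway of Gnas, 20 were tested in each comparison. In miR139-KD against NTC edgeR called 1 higher and 0 lower, beside 2.72% of all genes called, with a median log2 fold change of -0.09 against 0.02 over all genes. DESeq2 called 4, where it called 797 of the 13295 genes given to it. The count for limma was 2, where every alternative, limma among them, called at least 188 genes in all. The count ran from 0 to 4 over the alternatives, and 8 of the 20 had an unadjusted edgeR p under 0.05, against 16% of all genes tested. Gnb2, a G protein beta subunit, averaged 295 ± 36.5 CPM in miR139-KD and 196 ± 46.5 CPM in NTC, a log2 fold change of 0.60 with a standard error of 0.147 (edgeR adjusted p = 0.044); the call held without NTC replicate 1, NTC replicate 5 or miR139-KD replicate 5 and was lost without any 1 of the other 9 libraries (edgeR adjusted p 0.0631 to 0.101). Prkar2b, a regulatory subunit of protein kinase A, averaged 107 ± 15.7 CPM in miR139-KD and 68.6 ± 16.7 CPM in NTC (edgeR adjusted p = 0.0544). Its groups did not overlap, as was true of 3.38% of all genes tested in this comparison. In each of the other 2 comparisons edgeR, limma and DESeq2 called 0. An unadjusted edgeR p under 0.05 was found for 3 genes in PUS10-OE and 1 in Pus10-KO, beside 8.19% and 6.86% of all genes tested. The lowest p in PUS10-OE went to the phosphodiesterase gene Pde4b, at 67.9 ± 4.71 CPM in PUS10-OE, against 90.7 ± 5.94 CPM in Vector (edgeR adjusted p = 0.393).

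Of 20 factors that set or keep imprints 18 were tested in each comparison and edgeR called 0. Unadjusted, 2 had an edgeR p under 0.05 in PUS10-OE, 3 in miR139-KD and 1 in Pus10-KO. The shares over all genes tested were 8.19%, 16% and 6.86%. Also limma called 0, and DESeq2 called 1, in miR139-KD against NTC, where it called 797 genes in all. The maintenance methyltransferase gene Dnmt1 averaged 335 ± 60.4 CPM in miR139-KD and 235 ± 55.3 CPM in NTC (edgeR adjusted p = 0.113). The insulator protein gene Ctcf averaged 194 ± 21.3 CPM in miR139-KD and 151 ± 21.4 CPM in NTC (edgeR adjusted p = 0.105). In Pus10-KO the zinc finger gene Zfp445, which guards imprints, averaged 72.6 ± 12.8 CPM, against 48.9 ± 3.23 CPM in Pus10-WT (edgeR adjusted p = 0.603). In PUS10-OE the chromatin gene Arid4b averaged 57.3 ± 8.82 CPM, against 40.7 ± 2.57 CPM in Vector (edgeR adjusted p = 0.499).

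All 18 genes of quiescence and proliferation were tested in each comparison and edgeR called 0. Unadjusted, 2 had an edgeR p under 0.05 in PUS10-OE, 3 in miR139-KD and 3 in Pus10-KO. The shares over all genes tested were 8.19%, 16% and 6.86%. Also limma called 0, and DESeq2 called 1, in miR139-KD against NTC, where it called 797 genes in all. Cdkn1b, which encodes the inhibitor p27, averaged 26.7 ± 4.81 CPM in Pus10-KO and 10.2 ± 1.70 CPM in Pus10-WT (edgeR adjusted p = 0.455). Ccnd1, which encodes cyclin D1, averaged 20.6 ± 6.70 CPM in Pus10-KO and 39.3 ± 8.90 CPM in Pus10-WT (edgeR adjusted p = 0.603). Cdkn1a, which encodes p21, averaged 21.1 ± 12.6 CPM in miR139-KD and 54.7 ± 27.4 CPM in NTC (edgeR adjusted p = 0.103). In PUS10-OE the kinase gene Cdk6 averaged 1140 ± 67.1 CPM, against 910 ± 6.23 CPM in Vector (edgeR adjusted p = 0.364).

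**Figure D5:**
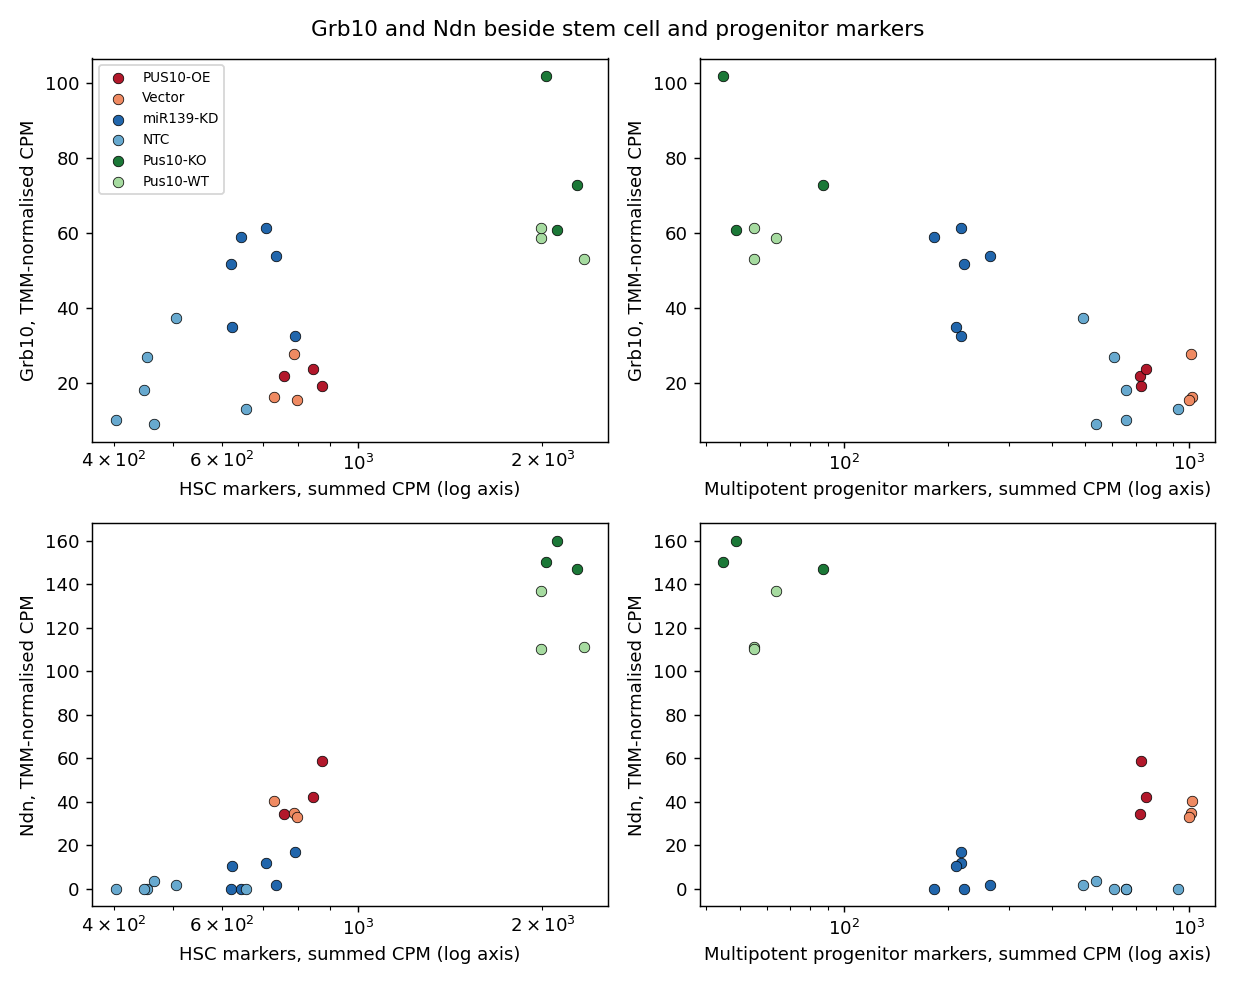
Grb10 and Ndn (TMM-normalised CPM) against the summed CPM of stem cell markers and of multipotent progenitor markers (log axes), 1 point per library, coloured by group. miR139-KD libraries lie between 183 and 265 CPM on the progenitor axis and NTC libraries between 492 and 927 CPM, and the Pus10-KO and Pus10-WT libraries lie apart from the rest on all 4 panels except for Grb10 levels, whose range overlaps that of miR139-KD.

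Among the 24 libraries, with each group's mean removed, the genes most like Grb10 were Rab3gap1 (Pearson r = 0.78), Dnajc4 (0.70) and 9230114K14Rik (0.69), of 9055 genes compared on log2(CPM + 1). Those most like Ndn were Ppp4r1l-ps, 6030458C11Rik and Swap70, at 0.75 each, and those most like Gnas were Pink1 (0.77), Soat1 (0.76) and Abhd17a (0.76). No member was among them, and Grb10 and Ndn themselves had an r of -0.24. These values describe libraries that differ in depth, and the genes named had the highest r of the many compared.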

How the data were processed

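RNA of sorted hematopoietic stem cells was sequenced by Smart-seq2, which copies RNA into full-length cDNA, amplifies it and cuts it with Tn5, per the labels' protocols. The deposited values are whole-number counts of reads per Ensembl gene, not normalised. Per the submitters' processing notes, HISAT2 2.1.0 and mm10 served for alignment and HTSeq 0.11.2 for counting, and DESeq2 is named too; the annotation release and overlap mode are not given in the sources used here. Gene symbols came from GENCODE M21 (GRCm38) for 55394 of 55487 IDs. Summary entries that name no gene were left out throughout; reads without a gene made up 3.70% to 12.0% and ambiguous reads 6.53% to 20.1%. All 42 pairs of libraries within groups differed beyond sampling noise (chi-square per degree of freedom at least 31.9).

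For each comparison a model of the 2 groups alone was fitted in edgeR 4.0.16 under R 4.3.3 (filterByExpr, TMM scaling, robust quasi-likelihood F test, two-sided), and a gene was called when its Benjamini-Hochberg adjusted p, taken over every gene tested, was under 0.05. Standard errors come from the log2 fold change and F, and 95% intervals use the normal quantile. Levels are CPM scaled by TMM over all 24 libraries, as mean ± SD; RPKM divides by merged exon length. Read counts carry no molecular identifiers, so floors (3 counts) cover counting error only. The same fits were checked on simulated counts. Alternatives were DESeq2 1.42.0, limma 3.58.1 (voom with quality weights), other scalings and filters, a block for the replicate number, a joint fit of the 6 groups, and leaving out each library.

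The members and the gene lists were chosen with earlier results of these data known. Named were all 10 members, Pus10, up to 4 genes of lowest p per list and comparison, and the 3 genes most like each member tested everywhere; others are marked as chosen after their values were seen. One progenitor marker is not reported here and was left out of the marker sums. MicroRNA and promoter sequences are from RefSeq (GRCm38.p6). Python 3.11.15 with matplotlib 3.10.9 drew the figures.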

Additional observations from a re-analysis of the deposited data

Results flagged for a closer look

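A single library stood apart from the other 5 of its group in 6 of 20 checks, made for the 10 imprinted genes in the 2 groups of 6 libraries with Dixon's gap ratio. Chance alone would mark about 1 check in 20, but in all 6 cases the other 5 libraries had no count at all, so that any single count is marked and that rate does not apply. Plagl1 stood at 3.12 CPM in miR139-KD replicate 1. Mirg stood at 0.534 CPM and Peg3 at 0.0763 CPM in NTC replicate 5. Meg3 stood at 0.147 CPM in NTC replicate 6. Rian stood at 0.209 CPM in miR139-KD replicate 5 and at 0.0697 CPM in NTC replicate 2. Apart from Plagl1, these values rest on 1 to 7 counts each.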

How the results depend on the processing

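Depth limits the 7 rarely detected members: a library at 0 may hold up to 0.292 CPM, so their absence cannot be told from a trace level. For Igf2 the exons shared with Gm49394 are a further limit. Genes called in miR139-KD against NTC numbered 361, against 797 with DESeq2, 776 with all 6 groups in 1 fit, 188 with the replicate number as a block, 201 without the libraries high in plasma cell markers, 212 with each group's least correlated library removed (both removals chosen after seeing the data) and 196 to 340 with 1 library left out. Members called there numbered 1, against 0 with no filter, with the replicate block and without the least correlated libraries, and 0 to 1 with 1 library left out; the Grb10 log2 fold change stayed between 1.20 and 1.70 over the 22 alternatives and its edgeR, DESeq2 or limma adjusted p between 0.00335 and 0.149. Genes called in PUS10-OE against Vector numbered 0, against 177 with DESeq2, 12 with a filter of 10 CPM, 4 in the joint fit and 0 with 1 library left out. In Pus10-KO against Pus10-WT they numbered 9, against 146 with DESeq2, 3 with limma, 14 with a filter of 10 CPM, 2 with the replicate block, 17 in the joint fit and 0 to 10 with 1 library left out. The cause of these moves was not tested.

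Same-numbered libraries of compared groups did not deviate together (correlations -0.05 to 0.01), so no pairing by number was seen. With so few libraries per group this cannot exclude that same-numbered libraries share an origin. Directions turned only for values that no test had called. In PUS10-OE these were Gnas (-0.08 with limma, -0.16 to 0.51 with 1 library left out, the lowest without PUS10-OE replicate 3), Grb10 (-0.05 to 0.43 with 1 library left out) and Plagl1 (-7.40 to 0.36). In Pus10-KO it was Rian (-0.09 with limma, -0.06 with the block, -0.33 to 0.88 with 1 library left out), and in miR139-KD Pus10 (0.02 without the least correlated libraries). The differences between the PUS10-OE and Pus10-KO effects ran from -0.69 to 0.15 for Gnas, -0.47 to 0.01 for Grb10 and -0.28 to 0.12 for Ndn.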
